A study of Oryctolagus cuniculus with 12 samples.

Results

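RLN1 encodes relaxin, a peptide hormone of the insulin superfamily, and its RNA was followed here in the basilar artery of the rabbit, which supplies the brain stem. The gene, 1 of 7346 named genes tested, was represented by every non-control probe that the array's gene symbol, accessions or description assigned to it, which gave 4 of 43623 probes. The 12 samples, 1 single-colour Agilent array each, fall into 4 groups of 3: normal arteries, called controls or day 0, and arteries taken at 3, 5 and 7 days after an experimental subarachnoid hemorrhage (SAH), bleeding around the outside of the brain. The sex, age and strain of the rabbits, the way the bleed was made and any operation on the controls are not given in the sources used here. RLN1 was selected on its log2 difference from control on these same arrays, so its levels are a description and carry no test.

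Relaxin is made as a longer precursor, from which a connecting peptide is cut out so that the remaining A and B chains, joined by disulfide bonds, form the hormone. It acts mainly through RXFP1, a receptor coupled to G proteins that raises cyclic AMP and activates nitric oxide and MAP kinase pathways. In other vessels and organs relaxin is known as a vasodilator and as a hormone that loosens connective tissue, by lowering collagen synthesis and raising matrix metalloproteinases. In the rabbit it is known as a product of the placenta and of airway epithelium that turns squamous.

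The 4 RLN1 probes overlap and together read 1 stretch, so they are treated as repeated readings of the same gene's RNA and not as separate evidence. The array's annotation places them on chromosome 1, from base 48873737 to base 48873887, a stretch of 151 bases, and names no genome build or exon. Each probe is 60 bases long. They are numbered here from the 5′ end, and their sequences, as the deposited annotation of the array gives them, are shown 5′ to 3′ with the bases shared with the next probe in capitals.
RLN1 probe 1: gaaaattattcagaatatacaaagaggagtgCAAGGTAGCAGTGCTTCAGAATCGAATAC
RLN1 probe 2: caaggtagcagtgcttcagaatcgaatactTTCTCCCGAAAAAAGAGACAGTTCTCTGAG
RLN1 probe 3: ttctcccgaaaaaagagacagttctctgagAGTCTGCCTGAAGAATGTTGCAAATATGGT
RLN1 probe 4: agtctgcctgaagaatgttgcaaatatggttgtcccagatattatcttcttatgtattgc
Probe 1 shares 29 bases with probe 2, probe 2 shares 30 with probe 3, and probe 3 shares 30 with probe 4. The G and C content is 36.7% in probes 1 and 4, 43.3% in probe 2 and 41.7% in probe 3. The probes list 4 Ensembl transcripts of the gene, of which 2 are listed by all 4 probes, and 0 other probes on the array list any of them. Of the remaining transcripts, 1 is listed only by probes 1 and 2, and 1 only by probes 3 and 4. Probes 1 and 4, at the ends of the stretch, have no bases in common.

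The arrays are of like depth but not of equal quality. Between 50.1% and 64.0% of spots were well above background and 0 spots were saturated. Control replicate 2 had the lowest of these shares and 169 outlier spots, against 1 to 16 on the other arrays. The replicate number is that of the slide. All 4 groups were present on each of 3 slides, always in the same positions, so group and position cannot be told apart. When limma estimated a weight for each array, slide 3 had weights of 0.343 to 0.683 and control replicate 2 had 0.545, against 1.08 to 2.85 for the rest. The labels do not say that samples of a group are separate animals, so p-values here cover the spread among these samples alone, and that spread may be technical. Precision is limited by having 3 arrays in each group.

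RLN1 was low in control arteries, intermediate on day 3 and high on days 5 and 7. Levels are log2 processed signals minus the log2 of that array's 75th percentile, and probe 4, the brightest of the 4, stands for the gene. The control arrays had -2.27, -2.55 and 0.68, with a mean of -1.38 ± 1.79 (SD, n = 3). The day 3 arrays had 0.43, 0.04 and 1.60, with a mean of 0.69 ± 0.81. The day 5 arrays had 2.08, 3.29 and 4.57, with a mean of 3.31 ± 1.25. On 2 of 3 control arrays the level lay below every SAH array, and control replicate 3 lay above 2 of the 3 day 3 arrays. The day 7 arrays had 1.93, 3.25 and 5.13, with a mean of 3.44 ± 1.61. All day 5 and day 7 arrays lay above all day 3 and all control arrays. In processed signal units, before any scaling between arrays, probe 4 had 32.2 to 218 in controls, 197 to 551 at day 3, 708 to 3472 at day 5 and 612 to 5108 at day 7. It was well above background on 12 of 12 arrays and had 0 outlier flags. On control replicate 2, however, its signal of 32.2 lay close to the limit. Probe 2, with 32.3 on that array, was not well above background.

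**Figure D1:**
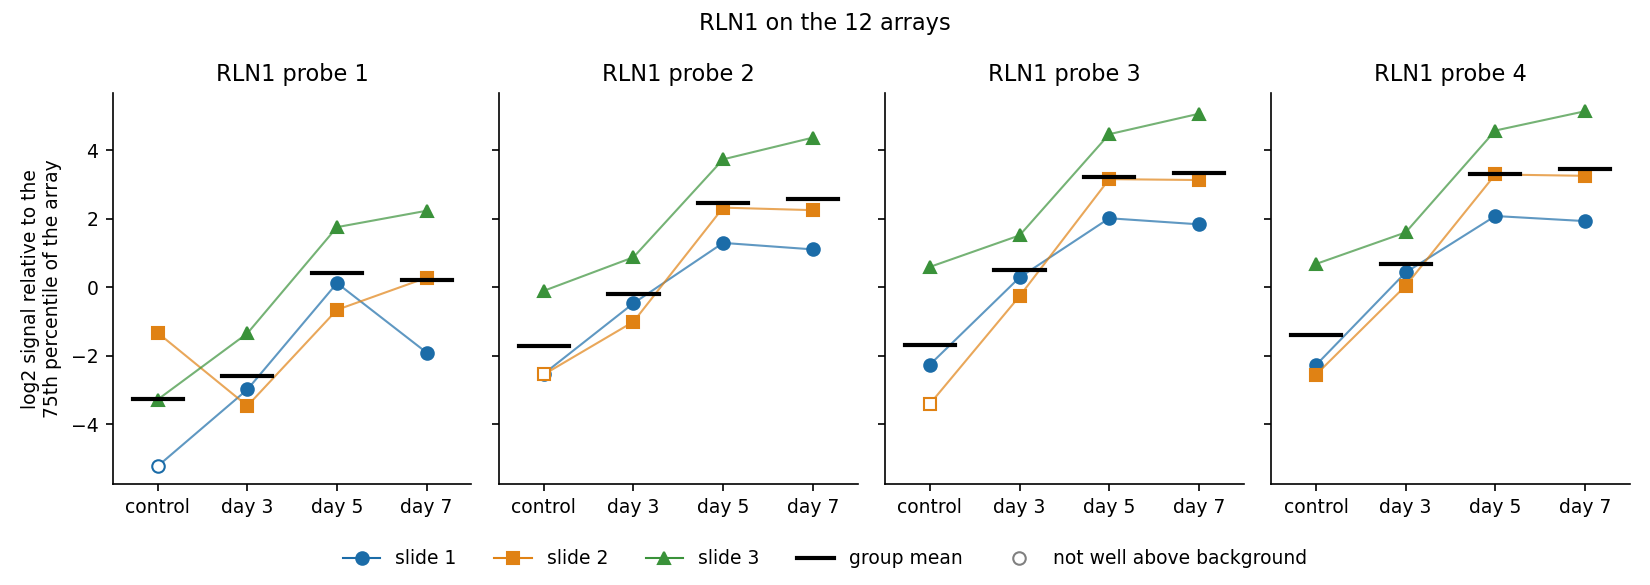
Levels of the 4 RLN1 probes (log2 signal over the array's 75th percentile) in control arteries and on days 3, 5 and 7 after SAH, 1 point per array, lines joining the arrays of 1 slide, bars at the group mean (n = 3). In probes 2, 3 and 4 the slide 3 array is the highest of its group in every group, and day 5 and day 7 lie above day 3 on every slide.

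On the scale of folds, the geometric mean of RLN1 was 4.20 times that of controls on day 3, 25.9 times on day 5 and 28.2 times on day 7 (log2 differences of 2.07, 4.69 and 4.82). The range of the day 3 arrays overlapped that of the controls, whereas those of days 5 and 7 did not. Among the 7346 named genes tested, limma called 6.9% on day 3 (4.86% higher and 2.04% lower), 2.16% on day 5 (1.95% higher and 0.218% lower) and 2.56% on day 7 (1.99% higher and 0.572% lower), at an adjusted p below 0.05 (Benjamini-Hochberg). Since RLN1 was selected on these differences, nothing is read from its place against these shares. The neighbours day 3 and control in this order differed by 2.07, against SDs of 0.81 and 1.79. Day 5 exceeded day 3 by 2.62, with no overlap, and day 7 exceeded day 5 by only 0.13, far less than either group's SD. The artery is bulk tissue, and in it more cells that hold relaxin RNA and more relaxin RNA per cell cannot be told apart.

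Probes 2 and 3 gave the same picture as probe 4. Probe 2 averaged -0.20 ± 0.97 on day 3, 2.45 ± 1.22 on day 5 and 2.57 ± 1.65 on day 7, against -1.73 ± 1.40 in controls (SD, n = 3 each). Probe 3 averaged 0.51 ± 0.91 on day 3, 3.21 ± 1.23 on day 5 and 3.34 ± 1.62 on day 7, against -1.69 ± 2.06 in controls. Over the 12 arrays their levels correlated with those of probe 4 at r = 0.995 and r = 0.997, a description over arrays that share their RNA and, in part, the probes' letters. For both probes the 1 array not well above background was control replicate 2.

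Probe 1, at the 5′ end of the stretch, followed the others less closely (r = 0.820 with probe 4). Its control arrays had -5.22, -1.33 and -3.28, its day 3 arrays -2.99, -3.46 and -1.35, its day 5 arrays 0.12, -0.66 and 1.75, and its day 7 arrays -1.91, 0.28 and 2.23. The array that departs is control replicate 2, where probe 1 had its highest control value while probe 3 and probe 4 had their lowest. On slide 2 the day 3 array was therefore 2.13 below the control array for probe 1 (a difference of -2.13), whereas it was 2.59 above it for probe 4. Without that control array the differences of probe 1 from control were 1.65 on day 3, 4.65 on day 5 and 4.45 on day 7, against 0.68, 3.68 and 3.48 with it. As its printed sequence shows, probe 1 shares only 29 bases with probe 2 and none of the stretch read by probes 3 and 4.

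Within each slide RLN1 kept the same order of groups, except between days 5 and 7. For probe 4 the day 3 array exceeded the control array of its slide by 2.70, 2.59 and 0.92 on slides 1, 2 and 3. The day 5 array exceeded it by 4.35, 5.84 and 3.89, and the day 7 array by 4.20, 5.80 and 4.46. Day 5 exceeded day 3 on every slide, by 1.65, 3.25 and 2.97. Day 7 minus day 5 was -0.15, -0.04 and 0.56, so the 2 later days differed in opposite directions on different slides. On days 5 and 7 the differences from control thus lie above 4 on all slides but slide 3 on day 5, and they are largest on slide 2. The control value of slide 2 is the one that lay close to the limit of background.

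**Figure D2:**
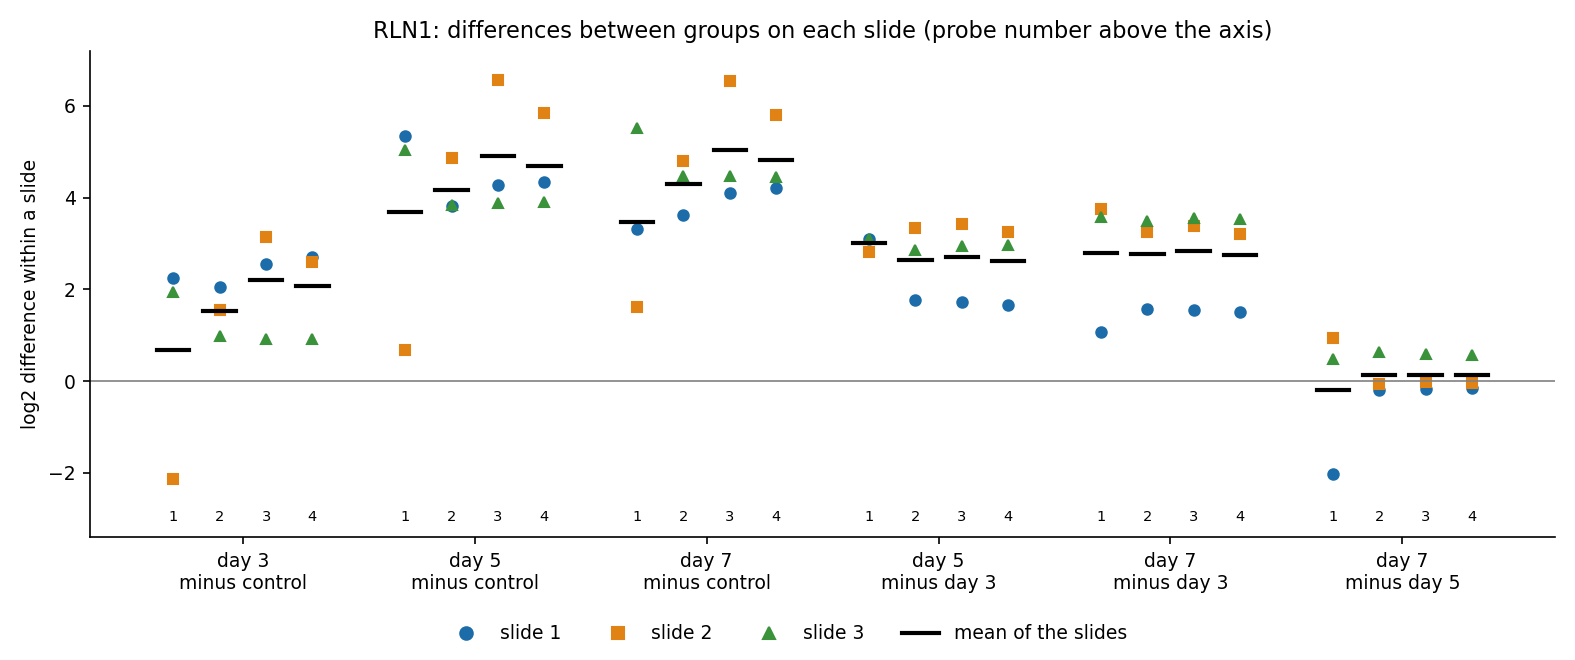
Log2 differences of RLN1 between groups on each slide, for probes 1 to 4, with bars at the mean of the 3 slides. Points of day 5 and day 7 against control lie above 0 for every probe and slide, those of day 7 against day 5 lie on both sides of 0, and the 1 point of day 3 against control below 0 is probe 1 on slide 2 (-2.13).

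Much of the spread within groups ran with the slide. For probe 4 the slide 3 array was the highest of its group in each of the 4 groups, with 0.68 in controls, 1.60 on day 3, 4.57 on day 5 and 5.13 on day 7. Group accounted for 75% of the sum of squares of probe 4 over the 12 arrays, slide for 21.2% and the rest for 3.79%. The medians of these shares over 26325 tested probes were 33.1%, 18.4% and 37.8%. Since RLN1 was selected on its difference from control, its group share describes that choice. The pooled SD within groups was 1.42, and 0.64 once the slide means were taken out, whereas the median over 26325 tested probes was 0.27 and 0.23. Slide 3 was highest in all 4 groups for 3004 of these probes (11.4%), so RLN1 shared this with other features. Without slide 3 the differences of probe 4 from control were 2.65 on day 3, 5.10 on day 5 and 5.0 on day 7. The part that the slide, or the animals or RNA on it, has in the RLN1 level was not tested.

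No single array left out turned the direction of the RLN1 differences from control, but several moved their size. Since RLN1 was selected on these differences, the kept direction supports nothing further. Leaving out control replicate 3, the high control array, gave 8.58-fold on day 3, 52.9-fold on day 5 and 57.7-fold on day 7. Leaving out control replicate 2 gave 2.80-fold, 17.3-fold and 18.8-fold on these days. Without day 5 replicate 3 the day 5 fold was 16.7 and without day 5 replicate 1 it was 39.7. Without day 7 replicate 3 the day 7 fold was 15.7 and without day 7 replicate 1 it was 47.6. Without control replicate 1 the day 3 fold was 3.09, and without day 3 replicate 3 it was 3.07. With normexp background correction, which raises low signals, the log2 differences were 1.24, 3.38 and 3.68 on days 3, 5 and 7.

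Among the 7346 named genes tested, RLN1 had the largest log2 difference above control on day 5 and on day 7, and the 69th largest on day 3. It stayed at place 1 in 21 of 23 alternative settings on day 5 and in 18 of 23 on day 7, with a lowest place of 2 on day 5 and of 7 on day 7 (without day 7 replicate 3). On day 3 its place ran from 22 to 159. These places describe the choice of the gene and support nothing further.

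The rest of the relaxin family could hardly be measured. Of 10 listed family members besides RLN1, 5 had a named probe. Those with 0 named probes were RXFP1, the main relaxin receptor, RXFP4, the receptor of the gut peptide INSL5, and the peptides RLN2, INSL3 and INSL4. The probes of RLN3, a relaxin of the brain, and of INSL5 were well above background on 0 of 12 arrays. INSL6, a testis peptide of the family, had 5 probes and was above background in 1 of 60 values, on a day 5 array. RXFP3, the RLN3 receptor, was above background on 5 of 12 arrays and was not tested.

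RXFP2, the receptor of INSL3, which also binds relaxin in humans, was the only other family member tested. Its brightest probe had -2.72, -2.38 and -2.87 on day 3, -2.57, -2.43 and -2.93 on day 5 and -2.52, -2.67 and -2.90 on day 7, against -1.73, -1.32 and -2.52 in controls. The control arrays were the higher ones, with replicate 2 the highest, and the day 3 and day 5 ranges overlapped that of the controls. The changes were -0.80 on day 3 (SE 0.28, limma adjusted p = 0.114, unadjusted 0.0138), -0.78 on day 5 (adjusted p = 0.201, unadjusted 0.0158) and -0.84 on day 7 (adjusted p = 0.141, unadjusted 0.0107), and none passed the test. With normexp correction the day 5 change was 0.04.

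Of 10 tested relatives of the insulin and insulin-like growth factor (IGF) branch, 1 rose and 2 fell on day 3, and 1 rose on day 5 and on day 7. These are 30%, 10% and 10% of a short list, against 6.9%, 2.16% and 2.56% of all genes. IGF1, a growth factor of the same superfamily as relaxin, had 0.58, 0.13 and 0.71 on day 5 and 0.70, 0.85 and 0.86 on day 7, against -0.71, -0.57 and -0.03 in controls. No day 5 or day 7 array overlapped the controls. IGF1 rose 2.36-fold on day 7 (log2 change 1.24, SE 0.20, limma adjusted p = 0.009; 5 of 5 probes called), a call kept in 23 of 23 alternatives. On day 5 it rose 1.88-fold (adjusted p = 0.0417; 3 of 5 probes called), a call lost in 15 of 23 alternatives, among them when any single day 3 or day 7 array, day 5 replicate 1 or 3, control replicate 1 or 2, or slide 3 was left out. On day 3 its change was 0.35 (adjusted p = 0.349). IGF1 and RLN1 are compared over the arrays further on.

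The other calls in this list came on day 3. IGFBP4, a binding protein that holds IGFs, had 1.0, 0.75 and 1.46 on day 3, against -0.36, -0.78 and -0.52 in controls, and rose 3.07-fold (limma adjusted p = 0.00172; kept in 23 of 23 alternatives). Its changes of 0.67 on day 5 and 0.64 on day 7 had adjusted p = 0.176 and 0.163. IGFBP2, another binding protein, had 2.70, 2.43 and 2.74 on day 3, against 4.46, 3.47 and 3.71 in controls, and fell by 1.25 on the log2 scale (adjusted p = 0.0136; lost without day 3 replicate 2, without slide 3 or with only the 2 groups compared in the fit). INSR, the insulin receptor, had -1.31, -1.75 and -1.53 on day 3, against -0.61, -0.42 and -0.50 in controls, and fell by 1.02 (adjusted p = 0.00803; 1 of 2 probes called; lost without slide 3). For INSR the changes of -0.78 on day 5 and -0.79 on day 7 narrowly missed the threshold (adjusted p = 0.0563 and 0.0509). The median change of the 10 genes was 0.15 on day 3, 0.19 on day 5 and 0.28 on day 7, against -0.0049, 0.02 and 0.03 over all genes tested.

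Among 6 tested genes of prohormone processing, which cut and sort precursors such as that of relaxin, 2 were called on day 3, 0 on day 5 (1 at an unadjusted p below 0.05) and 1 on day 7. These are 33.3%, 0% and 16.7% of a list of 6, against 6.9%, 2.16% and 2.56% of all genes. PCSK6, a proprotein convertase that cuts precursors outside the cell, had -3.36, -3.26 and -3.03 on day 3, -4.61, -4.58 and -4.62 on day 5 and -3.13, -4.0 and -3.99 on day 7, against -5.59, -4.62 and -4.68 in controls. It was well above background on all day 3 arrays and 2 of 3 day 7 arrays but on 0 control and 0 day 5 arrays, so it entered the test only through day 3, the group in which it was high. It was at least 1.27-fold higher on day 3 (limma adjusted p = 0.00457), a call lost with normexp correction and without slide 3. Because of that entry, nothing is read from this p-value or from its place among the 2 day 3 calls. The day 7 call (adjusted p = 0.0428) was lost in 16 of 22 alternatives, among them the replicate block (adjusted for slide) and leaving out any array but control replicate 3. SCG5, a chaperone of the convertase PCSK2 in neuroendocrine cells, was at least 2.85-fold lower on day 3 (adjusted p = 0.00287; 4 of 5 probes called; lost without slide 3 and with normexp). The call was also lost without day 3 replicate 1, a setting in which another of its probes stood for the gene. SCG5 was not called on day 5 (-0.72, adjusted p = 0.394; another of its 5 probes was) or day 7 (-0.41, adjusted p = 0.583). PCSK7, another convertase, differed by -0.45 on day 5 (adjusted p = 0.261) and -0.67 on day 7 (adjusted p = 0.0752). FURIN, the general convertase, the carboxypeptidases CPE and CPD, and PCSK7 had no call on any day, and PCSK2 itself was above background on 0 arrays. The list's median was -0.25 on day 3, -0.17 on day 5 and -0.17 on day 7.

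Of 40 tested genes of relaxin receptor signalling, from G proteins and adenylyl cyclases to protein kinase A, MAP kinases and nitric oxide synthases, 1 rose on each of the 3 days and 1 fell on day 3. That is 5%, 2.5% and 2.5% of the list on days 3, 5 and 7, near the 6.9%, 2.16% and 2.56% of all genes. MAPK14, the stress-activated kinase p38 alpha, had 0.13, 0.06 and 0.22 on day 3, -0.04, -0.16 and -0.13 on day 5 and -0.32, -0.28 and -0.19 on day 7, against -0.87, -0.90 and -0.71 in controls. Every SAH array lay above every control array, with the highest levels on day 3. MAPK14 rose 1.95-fold on day 3 (limma adjusted p = 0.00125; kept in 23 of 23 alternatives), 1.64-fold on day 5 (adjusted p = 0.0149; lost in 5 of 23, among them without day 5 replicate 1 or 2) and 1.47-fold on day 7 (adjusted p = 0.0445; lost in 14 of 23, among them when any day 3 or day 7 array, day 5 replicate 1 or 2, or control replicate 1 or 2 was left out). The gene that fell was ADCY2, an adenylyl cyclase, by 0.57 on day 3 (adjusted p = 0.0482; 1 of 6 probes called; lost in 18 of 23 alternatives, among them when any array but day 7 replicate 2 or 3 was left out). The list medians were -0.14, -0.09 and -0.11 on days 3, 5 and 7.

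Among the 7 relaxin lists, that of vascular and matrix genes known to respond to relaxin in other tissues was one of the largest. Of its 39 tested genes, 11 rose and 2 fell on day 3, and 4 rose and 1 fell on day 5 and on day 7. The calls came to 33.3%, 12.8% and 12.8% of the list, against 6.9%, 2.16% and 2.56% of all genes, and the list median was 0.35, 0.28 and 0.23. As the list was chosen with earlier results of these data known, nothing is read from the higher shares. COL1A1, a chain of type I collagen, had 4.46, 4.24 and 4.43 on day 5 and 4.31, 4.45 and 4.22 on day 7, against 2.97, 3.17 and 2.14 in controls. It rose 2.95-fold on day 3, 3.07-fold on day 5 and 2.96-fold on day 7 (limma adjusted p = 0.00254, 0.00453 and 0.00578), the calls of days 5 and 7 being lost with only the 2 groups compared in the fit. COL1A2, the other chain, rose 2.73-fold on day 5 and 2.55-fold on day 7 (adjusted p = 0.00619 and 0.00936), the day 5 call being lost with only the 2 groups compared and the day 7 call with quantile normalization and in the authors' value table. COL3A1, type III collagen, rose 2.05-fold on day 7 (adjusted p = 0.0375; 2 of 5 probes called; lost in 17 of 23 alternatives, among them when any array but control replicate 2 or day 5 replicate 3 was left out). On day 3 COL1A2 rose 2.0-fold (adjusted p = 0.0212; lost in 8 of 23 alternatives, among them without day 3 replicate 1 or 2 or control replicate 1 or 3) and COL3A1 1.90-fold (adjusted p = 0.0329; lost in 11 of 23, among them without any day 3 array, day 5 replicate 2, control replicate 1 or 3, or slide 3). COL3A1 was not called on day 5 (0.83, adjusted p = 0.098; 0 of 5 probes called).

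The protease side of this list moved in both directions. MMP9, a gelatinase that relaxin raises in several cell types, had 0.22, 0.91 and 0.42 on day 3, -0.88, -1.15 and -0.82 on day 5 and -1.31, -1.33 and -2.32 on day 7, against 0.09, 0.98 and 1.19 in controls. The day 3 arrays lay within the range of the controls, and all day 5 and day 7 arrays lay below all of them. MMP9 fell by 1.71 on day 5 (SE 0.33, limma adjusted p = 0.0249; lost in 8 of 23 alternatives, among them without each day 5 array in turn, without control replicate 2 or 3 and without slide 3). On day 7 it fell by 2.41 (adjusted p = 0.00441), a call kept in 23 of 23 alternatives. TIMP1, which inhibits metalloproteinases, rose 3.01-fold on day 5 and 2.79-fold on day 7 (adjusted p = 0.0137 and 0.0202), the day 5 call being lost without day 5 replicate 1, control replicate 1 or slide 3, and the day 7 call in 6 of 23 alternatives, among them when any day 7 array or control replicate 1 or 2 was left out. PLAU, urokinase, which cuts plasminogen, rose 2.86-fold on day 3 (adjusted p = 0.00163; 2 of 2 probes called; kept in 23 of 23 alternatives) and was not called on day 7 (0.89, adjusted p = 0.0507). On day 5 it rose 2.05-fold (adjusted p = 0.0285; 1 of 2 probes called; lost in 8 of 23 alternatives, among them without day 5 replicate 1 or 3, control replicate 1 or 2, or slide 3). On day 3 the rises of the list included TIMP1 (3.49 on the log2 scale; adjusted p = 7.74e-05) and CCL2, a monocyte chemokine (2.54; adjusted p = 0.00803). The cytokine gene IL6 was higher by at least 1.61-fold (adjusted p = 0.0169; lost in 5 of 22 alternatives, among them without day 3 replicate 3, control replicate 1 or slide 3). Its probe was well above background on the 3 day 3 arrays and on 0 control, 0 day 5 and 0 day 7 arrays, so it too entered the test only through the group in which it was high. Nothing is read from the p-value of IL6 either. The falls were CCN2, a growth factor that promotes fibrosis, by 1.38 (adjusted p = 0.0299), and TGFB3, a transforming growth factor, by 1.38 (adjusted p = 0.0263). Both calls were lost with no filter on dim probes and without day 3 replicate 2 or 3, control replicate 1 or slide 3. That of CCN2 was also lost without control replicate 3. That of TGFB3 was also lost without control replicate 2 and with normexp correction (-0.46). TGFB3 was well above background on only 1 of 3 day 3 arrays, so its day 3 level lay near background.

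**Figure D3:**
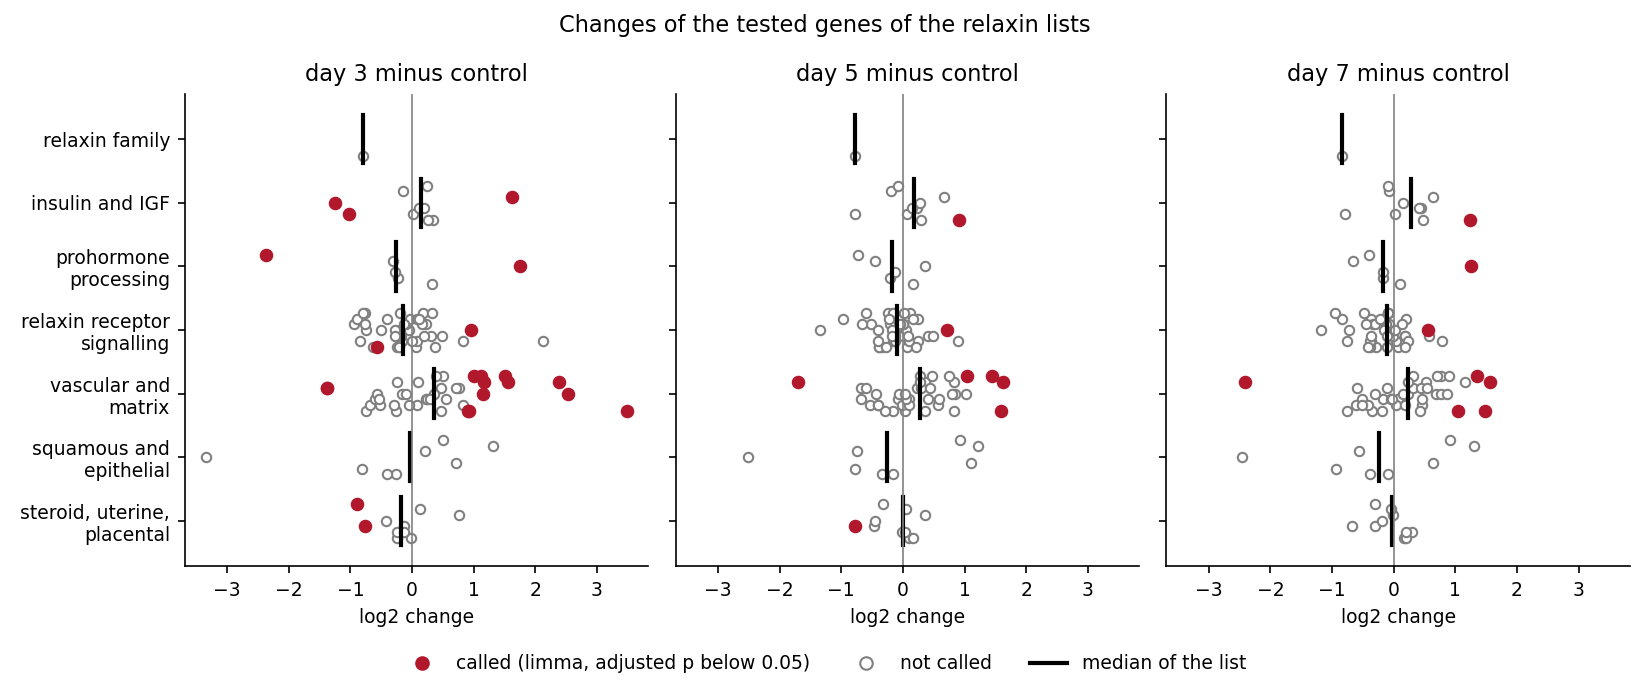
Log2 changes against control of the tested genes of the 7 relaxin lists on days 3, 5 and 7, with called genes as filled red points (limma, adjusted p below 0.05) and a bar at the list median. The height of a point within its list carries no meaning, and RLN1 itself is not shown. The vascular and matrix list holds 13 called genes on day 3 and 5 on each of days 5 and 7, and the squamous and epithelial list holds none.

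Genes of squamous and other epithelium, a known source of relaxin RNA in the rabbit, gave no call on any day. With 8 genes tested, and 6.9%, 2.16% and 2.56% of all genes called, nothing is read from this count. Of 26 with a probe, 15 were well above background on 0 of 12 arrays, and 8 were tested. Among the 15 were the keratins KRT1, KRT5, KRT10 and KRT13 and the squamous regulator TP63. Of the 8, by their most often detected probe, SPRR3 and CLDN7 were well above background on 12 of 12 arrays. KRT19 was so on 11 arrays, and the other tested genes on 7 to 10. On the linear scale, the summed level of the 8 tested genes was 216 to 271 in controls and 179 to 184 at day 3. It was 169 to 227 at day 5 and 163 to 231 at day 7. Whether the samples held epithelial cells was not tested. The smallest p-values were those of KRT18 and DSP on day 3 (limma adjusted p = 0.198 and 0.211), EPCAM and PPL on day 5 (0.268 and 0.285) and DSP and PPL on day 7 (0.194 and 0.244). At an unadjusted p below 0.05 there were 3 genes on day 3, 3 on day 5 and 2 on day 7. KRT18, a keratin of simple epithelia, had 3.03 on control replicate 2 but -3.44 and -3.51 on the other controls, and between -6.13 and -2.64 on the 9 SAH arrays. A single array thus carries its control mean, and it is the array on which RLN1 probe 1 stood apart. The list medians were -0.03, -0.25 and -0.24 on days 3, 5 and 7.

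The list of steroid receptor, uterine and placental genes, the other known setting of relaxin, held 10 tested genes and no called rise. The called genes, all falls, were 20%, 10% and 0% of the list on days 3, 5 and 7, against 6.9%, 2.16% and 2.56% of all genes. Called rises were 4.86%, 1.95% and 1.99% of all genes, so nothing is read from their absence among 10. At an unadjusted p below 0.05 there were 3 genes on day 3, 1 on day 5 and 1 on day 7, in either direction. The sex steroid receptor gene ESR1 was above background on 1 array, and CYP19A1, the aromatase that makes estrogens, on 0. STAR, which brings cholesterol into mitochondria for steroid synthesis, had -0.40, -0.31 and -0.15 on day 3, -0.36, -0.21 and -0.36 on day 5 and -0.26, 0.05 and -0.43 on day 7, against 0.37, 0.32 and 0.71 in controls. It fell by 0.75 on day 3 and by 0.78 on day 5 (limma adjusted p = 0.0226 and 0.0399, lost in 6 and 13 of 23 alternatives, the day 3 call without day 3 replicate 1 or 2, control replicate 3 or slide 3, and the day 5 call without any day 5 or control array among others), and its change of -0.68 on day 7 had adjusted p = 0.0608. PGR, the progesterone receptor, fell by 0.89 on day 3 (adjusted p = 0.0286; 1 of 3 probes called; lost in 9 of 22 alternatives, among them without day 3 replicate 1 or 3, control replicate 1 or 3, or slide 3). Over all 7 relaxin lists, 114 genes were tested, and 14 rose and 8 fell on day 3 (19.3% called), 6 rose and 2 fell on day 5 (7.02%) and 7 rose and 1 fell on day 7 (7.02%). Of all genes tested, 6.9%, 2.16% and 2.56% were called on these days. The lists were chosen with earlier results of these data known, so nothing is read from the difference.

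The genes whose levels over the 12 arrays were most like those of RLN1 probe 4, by Pearson's r among 7317 genes, were HACD4 (0.951), STAT4 (0.912), FAR1 (0.907), IGF1 (0.893) and RMND1 (0.893). Least like it were JUP (-0.956), SLC35E4 (-0.916) and PLA2G4C (-0.893). These values are a description over arrays that share groups and slides. HACD4, an enzyme of very long fatty acid synthesis, had 1.38, 1.08 and 1.45 on day 3, 1.45, 1.40 and 2.25 on day 5 and 1.46, 1.57 and 2.17 on day 7, against 0.68, 0.46 and 1.15 in controls. As for RLN1, its slide 3 array was the highest in each group, and its deviations from the group means correlated with those of RLN1 at 0.887. Its whole spread over the arrays was 1.79, against 7.69 for RLN1, and none of its changes was called (limma adjusted p = 0.29, 0.131 and 0.0946 on days 3, 5 and 7).

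STAT4, a transcription factor of interferon and interleukin 12 signalling in lymphocytes and monocytes, was, with IGF1, the only gene of these 8 whose brightest probe was called. It had -1.36, -1.70 and -0.70 on day 5 and -1.62, -1.40 and -0.83 on day 7, against -3.61, -2.94 and -2.95 in controls. All SAH arrays lay above all controls. STAT4 rose 2.11-fold on day 3 (limma adjusted p = 0.0488, 1 of 2 probes called, and lost in 14 of 22 alternatives, among them without any day 3 or any control array). It rose 3.76-fold on day 5 (limma adjusted p = 0.0063, 1 of 2 probes called) and 3.68-fold on day 7 (adjusted p = 0.00763, 2 of 2 probes called). The later calls were lost only with normexp correction among 22 alternatives. Its probe was well above background on 2 of 3 control arrays, so it entered the test only through the SAH groups, in which it was high. The 8 genes were picked for a pattern like or opposite to that of RLN1, itself selected for its difference from control. The p-values given with this likeness are therefore a description and support nothing further. FAR1, which makes fatty alcohols for ether lipids, differed by 0.22, 0.42 and 0.48 on days 3, 5 and 7, and RMND1, a protein of mitochondrial translation, by 0.52, 0.67 and 0.76, with no call on the probes used, although 1 of 3 RMND1 probes was called on day 7. Of the opposite genes, JUP, the junction protein plakoglobin, had 0.21, 0.12 and -0.03 on day 3, 0.09, -0.34 and -0.34 on day 5 and -0.11, -0.47 and -0.43 on day 7, against 0.54, 0.57 and 0.13 in controls. Its day 7 change was -0.75 (adjusted p = 0.0606).

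**Figure D4:**
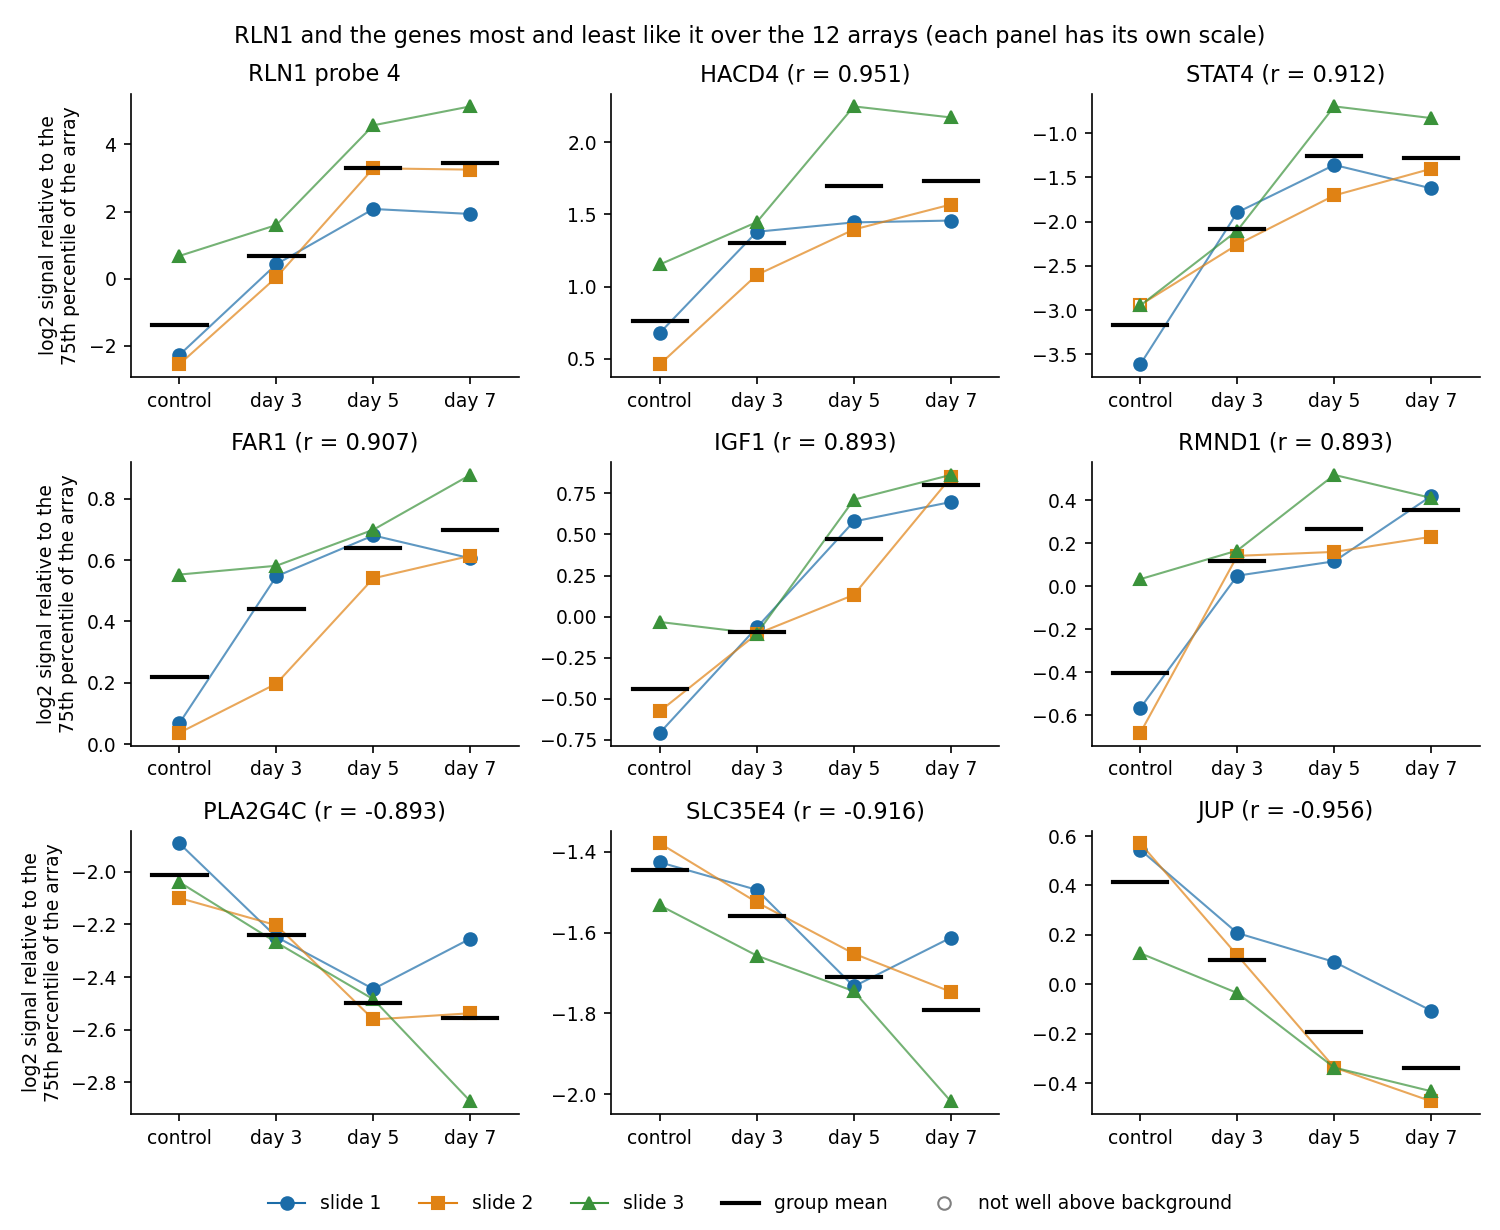
Levels over the 12 arrays (log2 signal over the array's 75th percentile) of RLN1 probe 4, of the 5 genes with the highest and the 3 with the lowest correlation to it, each panel on its own axis, with lines joining the arrays of 1 slide and bars at the group mean (n = 3). HACD4 shares the high slide 3 arrays of RLN1 over a spread of 1.79 against 7.69, and JUP runs the other way.

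The order of likeness held in part when the values were scaled differently. With quantile normalization and in the authors' value table HACD4 and STAT4 kept places 1 and 2 from the top and JUP place 1 from the bottom. With normexp correction HACD4 (0.921) and JUP (-0.950) kept their places, whereas SLC35E4 and PLA2G4C, both dim, went to -0.10 and 0.06. Over the 9 SAH arrays alone the correlations were 0.881 for HACD4, 0.891 for STAT4, 0.751 for IGF1 and -0.885 for JUP, at places 30, 28 and 220 from the top and 19 from the bottom. Over the 8 arrays of slides 1 and 2 they were 0.935, 0.914 and 0.886 at places 20, 46 and 108 from the top, and -0.955 for JUP at place 5 from the bottom.

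The neighbours of RLN1 on its chromosome are given as values. In the gene order of the RefSeq assembly mOryCun1.1, 10 neighbouring protein-coding genes were looked at, 5 on each side, of which 6 had a named probe and 5 were tested. None of the 5 was called on any day, a count from which nothing is read beside the 6.9%, 2.16% and 2.56% of all genes. PLGRKT, a plasminogen receptor and the next gene on one side, differed by 0.28, 0.46 and 0.52 on days 3, 5 and 7 (limma adjusted p = 0.62, 0.503 and 0.356). CD274, the immune checkpoint ligand PD-L1, differed by 0.32, 0.94 and 0.53, with adjusted p = 0.057 on day 5. JAK2, a kinase of cytokine receptors, differed by 0.15, 0.25 and 0.42, and RIC1 and ERMP1 had no call. On the other side, between RLN1 and INSL4, lie 2 protein-coding loci that carry only identifiers and have no named probe here, and whether the RLN1 probes also bind RNA of such neighbours was not tested.

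Levels of some cell type markers differed from control on the same days. Whether the numbers of these cells changed was not tested. Macrophage markers rose, 5 of 7 tested on each day (71.4%), against 6.9%, 2.16% and 2.56% of all genes called on days 3, 5 and 7. CD68, a lysosomal protein of macrophages, rose by 2.17, 1.88 and 2.0 on the log2 scale on days 3, 5 and 7 (limma adjusted p = 0.000126, 0.00106 and 0.000618). The summed level of the 7 genes, on the linear scale as multiples of the 75th percentile, was 27.1 to 39.0 at day 3, 34.1 to 49.6 at day 5 and 30.8 to 43.2 at day 7, against 9.89 to 14.7 in controls. Smooth muscle markers had medians of -0.48, -0.50 and -0.60 with 1 of 10 called (MYL9, on day 3), and endothelial markers had medians of -0.57, -0.44 and -0.64 with 0 of 6 called. At an unadjusted p below 0.05 the smooth muscle list had 4, 5 and 7 genes on days 3, 5 and 7, and the endothelial list 3, 1 and 3. From 1 call among 10 genes and 0 among 6 nothing is read beside the shares of all genes. The summed smooth muscle level was 602 to 735 at day 3, 575 to 710 at day 5 and 578 to 758 at day 7, against 816 to 985 in controls, so that the artery's own marker genes were measured in every group.

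Fibroblast and leptomeningeal markers showed 3 rises and 3 falls among 9 on day 3, 2 rises on day 5 and 3 on day 7. These are 66.7%, 22.2% and 33.3% of the list, against 6.9%, 2.16% and 2.56% of all genes. The summed level was 1050 to 1076 at day 3, 1465 to 1569 at day 5 and 1606 to 1948 at day 7, against 1369 to 2473 in controls. The erythroid genes, of which 3 were tested, had medians of 0.07 on day 3, 0.97 on day 5 and 1.40 on day 7 and 0 calls (0, 0 and 2 genes at an unadjusted p below 0.05), with HBA, an alpha globin, at 1.40 on day 7 (limma adjusted p = 0.164). Their summed level was 63.1 to 353 at day 3, 171 to 469 at day 5 and 305 to 382 at day 7, against 101 to 162 in controls. Neutrophil, mast cell and neural lists had 0 calls by limma (0, 2 and 2 over the 3 days at an unadjusted p below 0.05), and the glial genes GFAP and AQP4 were above background on 0 arrays. The lymphocyte list had 1 call (CD79B, higher on day 3) and the skeletal muscle list 1 (TNNC2, lower on day 3). From the 0 or 1 calls of these short lists nothing is read beside the shares of all genes. The part of any of these cells in the RLN1 level was not tested.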

How the data were processed

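RNA was labelled with a single dye, per the labels' protocols, and hybridised to 12 arrays. The authors deposited the scanner output. The submitters' processing notes name Agilent Feature Extraction, version 9.5.1.1. The signal used is a processed intensity, background-subtracted and detrended within each array per the file headers, and the flags for spots well above background, outliers and saturation are values of the kind other, 0 or 1. The authors' deposited value table, an intensity with the same median (27.0) in every column, served as an alternative.

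Log2 processed signals were taken relative to each array's 75th percentile, without control and outlier spots. Probes had to be well above background in every array of some group (26434 of 43623 were tested). Gene names, updated through a RefSeq table, fell on 22321 probes, 69 of them by description, while 125 had several genes and 21177 had none. Each gene takes its brightest tested probe. limma 3.58.1 (R 4.3.3) was fitted to all 12 arrays without a block, two-sided, with Benjamini-Hochberg adjustment over all tested probes and a threshold of 0.05; it was tested on simulated data. Where no array of a group was above background, folds are bounds, in which the dim probe is set on each array to its own signal or, if larger, to the smallest signal that counts as well above background there.

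RLN1, the 7 relaxin lists and the 10 cell type lists were chosen with earlier results of these data known. Shares called in a list that exceed those of all genes are therefore a description. Named were the family members, up to 4 called genes per list, day and direction (with none, the 2 with the smallest p), and the 5 genes most and 3 least like RLN1. Same-slide arrays' deviations from group means correlated at -0.15 to 0.39 over 18 pairs (median 0.11). Those of arrays of different slides and groups correlated at -0.40 to 0.26 over 36 pairs (median -0.04). The slide is part of the array layout, but the labels do not say that same-numbered samples are paired. The main fit therefore leaves the slide out, and a fit with it as a block is among the alternatives. The alternatives numbered 23, of which 1, leaving out slide 3, was chosen after seeing the data.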

Additional observations from a re-analysis of the deposited data

How the results depend on the processing

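RLN1 stayed above control on every SAH day under all 23 alternatives. It was selected on these differences, so this is a description and no support. Several alternatives, such as the slide block or leaving out an array of a group not compared, cannot move a difference of group means. Leaving out 1 array at a time gave log2 differences from control of 1.49 to 3.10 for day 3, 4.07 to 5.72 for day 5 and 3.97 to 5.85 for day 7, and 1.99 to 3.24 for day 5 against day 3, 1.90 to 3.5 for day 7 against day 3 and -0.72 to 0.88 for day 7 against day 5. Genes of the 7 relaxin lists called numbered 22, 8 and 8 on days 3, 5 and 7, and 12 to 22, 2 to 8 and 4 to 13 with 1 array left out. All genes called numbered 507, 159 and 188, and 235 to 564, 79 to 215 and 65 to 554, the 554 without control replicate 3. With no filter on dim probes the lists had 13, 3 and 5 calls and all genes 277, 94 and 83. With normexp all genes had 310, 73 and 83 calls, and the lists 4 on day 5 and 5 on day 7. With only the 2 groups compared the lists had 12, 1 and 4 and all genes 241, 59 and 84. Without slide 3, chosen after seeing the data, the lists had 12 and 3 and all genes 317 and 90 on days 3 and 5. Array weights gave 267 and 381 genes on days 5 and 7, and probes above background on all 12 arrays 96 on day 5. With the replicate block (slide) day 7 had 284 genes and the day 7 call of PCSK6 was lost. On their deviations from group means, 10 of 12 arrays correlated best with their own slide. Whether same-numbered samples share more than the slide is not given.

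Of 37 calls on named genes, 8 were kept under every alternative and 0 reversed. Direction turned for 13 of 99 named results, none of them called. With normexp the day 5 changes were 0.077 for ADCY2, 0.19 for DSP, 0.18 for PCSK7, 0.15 for PGR, 0.22 for PLA2G4C, 0.045 for RXFP2, 0.14 for SCG5, 0.15 for SLC35E4 and 0.14 for TGFB3, and the day 3 change of PPL was -0.026. CCN2 on day 7 was 0.28 without day 7 replicate 3, 0.01 without control replicate 1 and 0.35 without slide 3, with -0.38 to 0.28 over all single arrays left out. IGFBP2 on day 7 was -0.091 with array weights, -0.053 without slide 3 and -0.052 without control replicate 2, with -0.052 to 0.44 over all single arrays left out. MMP9 on day 3 was 0.054 with array weights and 0.030 without slide 3. The cause was not tested. Signal over background was the limit for RLN3 and INSL5, above it on 0 of 12 arrays, and for INSL6, above it in 1 of 60 values.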
